A study of Mus musculus with 21 samples.

Results

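MHC class I genes and the genes that load peptide onto class I molecules were followed as 8 named rows of the deposited expression table: the heavy chain genes H2-K1, H2-D1 and H2-T23, the light chain gene B2m, the peptide transporter genes Tap1 and Tap2, the tapasin gene Tapbp and the class I transactivator gene Nlrc5. They were chosen by name and not by their values. All 8 were found among the 13202 genes of the table, and all 8 passed the filter on low values.

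Nearly every nucleated cell carries class I molecules, each made of a heavy chain, beta-2 microglobulin and a short peptide cut from the cell's own proteins. The proteasome makes the peptides, the TAP transporter (the Tap1 and Tap2 proteins) pumps them into the endoplasmic reticulum, and tapasin (the Tapbp protein) holds empty class I molecules at the transporter until a peptide is bound. In lymphocytes the transactivator NLRC5 drives transcription of class I genes from an enhancer called the SXY module, and interferon gamma raises the whole pathway through its receptor and IRF1. T cells are therefore both readers of class I molecules and carriers of them. In C57BL/6 mice H2-K1 encodes H-2Kb, the molecule that presents the ovalbumin peptide SIINFEKL to the OT-I T cell receptor, H2-D1 encodes H-2Db, and H2-T23 encodes Qa-1, a nonclassical heavy chain that engages the inhibitory receptor CD94/NKG2A.

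The 21 libraries fall into 7 groups of 3. All were made from CD8 T cells of mouse spleen and inguinal lymph node that received a first stimulation of 48 h, were then kept in interleukin 2, and were harvested on day 8. The NAC chronic group (C57BL/6) was stimulated again every 48 h through plate-bound anti-CD3 and received N-acetylcysteine (NAC, an antioxidant, 10 mM) from 48 h on. The vehicle chronic group (C57BL/6) had the same repeated anti-CD3 with vehicle, and the vehicle acute group (C57BL/6) had vehicle without renewed anti-CD3. The OT-I chronic group (OT-I TCR transgenic) was co-cultured with melanoma cells of the B16-F10 line that had been pretreated with interferon gamma, plus SIINFEKL, and the OT-I acute group (OT-I TCR transgenic) with the same melanoma cells and no peptide. The polyclonal chronic group (C57BL/6) had repeated anti-CD3, and the polyclonal acute group (C57BL/6) had none after the first stimulation. Vehicle and NAC libraries are treated here as 1 experiment, and the OT-I and polyclonal libraries as 1 each. This division was taken from the sample titles and not from a stated date or batch. Differences between these experiments in culture, date or sequencing cannot be told apart from differences in the cells. The labels do not say whether the 3 libraries of a group came from separate mice, so the p-values measure the spread between these libraries, which may be technical.

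RPKM, a read number divided by gene length and by library size, is used throughout as the level of a gene, and whole read numbers could be recovered from it. Reads in listed genes numbered 14421378 to 17539278 per library in the vehicle and NAC experiment, 13121180 to 25218890 in the OT-I experiment and 5347355 to 15147347 in the polyclonal experiment. Each of the 8 genes had at least 842 reads in every library. In 3 libraries the weakly expressed genes lay higher than in the other libraries of their group: the first quartile of all genes was 4.32 RPKM in OT-I acute replicate 3, 2.74 in polyclonal chronic replicate 2 and 2.92 in polyclonal acute replicate 2. Calls on the 8 genes that depend on these libraries are therefore also given without them. Cell markers went furthest against the CD8 T cell label in the polyclonal chronic group. Cd8a was 8.48 RPKM and Cd4 312 RPKM there, against Cd8a at 101 RPKM and Cd4 at 67.5 RPKM in the polyclonal acute group. Cd4 was also 47.9 RPKM in the NAC chronic group, against 13.9 RPKM in vehicle acute and 2.39 RPKM in vehicle chronic cultures. OT-I libraries held melanoma RNA, with 4648 to 4772 RPKM over 12 melanocyte markers in OT-I chronic and 7951 to 8247 RPKM in OT-I acute libraries. The melanocyte gene Tyrp1 was listed at 0 in every vehicle and NAC library. In polyclonal acute libraries it was 5.21 to 15.3 RPKM and in polyclonal chronic libraries 5.63 to 10.1 RPKM. The 12 markers summed to 37.8 to 84.0 RPKM in polyclonal acute and 50.4 to 72.2 RPKM in polyclonal chronic libraries. Their sums were 11.5 to 12.2 RPKM in vehicle acute, 15.3 to 15.9 RPKM in vehicle chronic and 36.7 to 37.5 RPKM in NAC chronic libraries. The source of these reads was not tested.

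Promoters of the heavy and light chain genes are printed here because the SXY module, through which NLRC5 is known to act, lies upstream of class I genes. The RefSeq promoter table of the build GRCm38.p6 (250 bases before to 50 after the start) lists 6 of the 8 genes, all but Tap2 and Nlrc5. Capitals mark the letters TGACG of the X2 box and ATTGG of the Y box on the strand of the gene, 20 bases apart, and in H2-T23 a near match of both boxes at that spacing. H2-K1 lies on the minus strand at chr17:34000298-34000597, H2-D1 on the plus strand at chr17:35262844-35263143, B2m on the plus strand at chr2:122147437-122147736 and H2-T23 on the minus strand at chr17:36032652-36032951.
H2-K1: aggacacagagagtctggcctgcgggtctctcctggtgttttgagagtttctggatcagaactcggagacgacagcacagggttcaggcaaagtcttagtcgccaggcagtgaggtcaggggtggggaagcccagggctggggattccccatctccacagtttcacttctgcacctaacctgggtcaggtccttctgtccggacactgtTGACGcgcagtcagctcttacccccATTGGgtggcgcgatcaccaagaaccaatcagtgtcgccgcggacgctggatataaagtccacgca
H2-D1: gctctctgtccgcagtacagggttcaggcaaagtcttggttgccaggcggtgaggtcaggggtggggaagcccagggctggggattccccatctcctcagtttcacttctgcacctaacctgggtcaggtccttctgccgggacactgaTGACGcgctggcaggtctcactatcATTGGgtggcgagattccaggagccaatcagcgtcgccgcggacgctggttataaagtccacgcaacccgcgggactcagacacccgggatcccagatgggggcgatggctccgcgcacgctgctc
B2m: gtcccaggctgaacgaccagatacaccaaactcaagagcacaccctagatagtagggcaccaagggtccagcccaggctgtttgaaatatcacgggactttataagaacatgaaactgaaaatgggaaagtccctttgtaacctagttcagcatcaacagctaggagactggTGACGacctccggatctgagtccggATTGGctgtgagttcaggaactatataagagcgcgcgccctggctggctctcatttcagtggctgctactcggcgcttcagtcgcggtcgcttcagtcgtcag
H2-T23: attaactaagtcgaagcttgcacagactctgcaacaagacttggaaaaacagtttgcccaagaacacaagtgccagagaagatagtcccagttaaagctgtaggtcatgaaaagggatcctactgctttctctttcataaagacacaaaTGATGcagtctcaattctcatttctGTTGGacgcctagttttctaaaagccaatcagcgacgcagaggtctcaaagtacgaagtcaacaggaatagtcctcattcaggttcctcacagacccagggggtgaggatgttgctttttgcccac
The pair was searched on both strands as TGACG followed by 18 to 22 bases of any kind and ATTGG, a spacing chosen after the promoters had been seen. It occurred in 78 of 27025 RefSeq promoters of the same length (0.289%). Among the 6 promoters the exact letters occurred in H2-K1, H2-D1 and B2m. With up to 1 mismatch allowed in each box, a search added after the exact one, H2-T23 also held the pair, with C4T in the X2 letters and A1G in the Y letters (positions from 1 at the 5′ end of each box, the searched letter first). So did Tap1, on the opposite strand and with 18 bases between the boxes, whereas Tapbp did not. That looser pair occurred in 30.3% of all promoters. Tap1 and Tapbp, without the exact pair, fell in vehicle chronic cultures as H2-K1, H2-D1 and B2m did, and no relation between these letters and the levels was tested. The interferon regulatory factor letters AANNGAAA occurred in H2-K1, H2-D1, B2m and, at 2 places, H2-T23, and in 24.2% of all promoters. A NF-kappaB element, searched by its name's standard letters, occurred in H2-K1, H2-D1 and B2m and in 8.18% of all promoters. The letters TTCNNNGAA of the gamma-activated sequence, a known interferon response element, occurred in none of the 6 and in 8.47% of all promoters. A match is a description of letters, not of binding.

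B2m had the highest level of the 8 genes in every group and Nlrc5 the lowest. B2m, the light chain that every class I heavy chain needs, ranged over all libraries from 1864 to 6074 RPKM, H2-K1 from 621 to 1855 RPKM, H2-D1 from 165 to 435 RPKM and H2-T23 from 75.4 to 367 RPKM. Tap1 ranged from 93.0 to 292 RPKM, Tap2 from 115 to 225 RPKM, Tapbp from 128 to 394 RPKM and Nlrc5 from 10.6 to 89.7 RPKM. For 7 of the 8 genes the vehicle chronic group had the lowest mean of the 7 groups, without overlap with the next group. The exception was H2-T23, which was lowest in the vehicle acute group, with 83.6 ± 10.3 RPKM (SD, n = 3).

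The order of the group means differed between the genes. Nlrc5 averaged 11.3 RPKM in vehicle chronic, 35.4 in polyclonal chronic, 56.7 in vehicle acute, 59.8 in NAC chronic, 62.6 in polyclonal acute, 74.8 in OT-I chronic and 77.6 RPKM in OT-I acute cultures. In that order, vehicle acute, NAC chronic and polyclonal acute overlapped their neighbours, and so did the 2 OT-I groups, while the other steps were free of overlap. H2-K1 ran from vehicle chronic (631 RPKM) through polyclonal chronic (943), vehicle acute (1016), polyclonal acute (1101), NAC chronic (1197) and OT-I acute (1631) to OT-I chronic (1726 RPKM). Of these steps, vehicle acute to polyclonal acute, polyclonal acute to NAC chronic and OT-I acute to OT-I chronic overlapped. The OT-I groups held the highest mean of every one of the 8 genes. Their libraries also held by far the most melanocyte marker RNA, and the part of melanoma RNA in those levels was not tested.

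**Figure D1:**
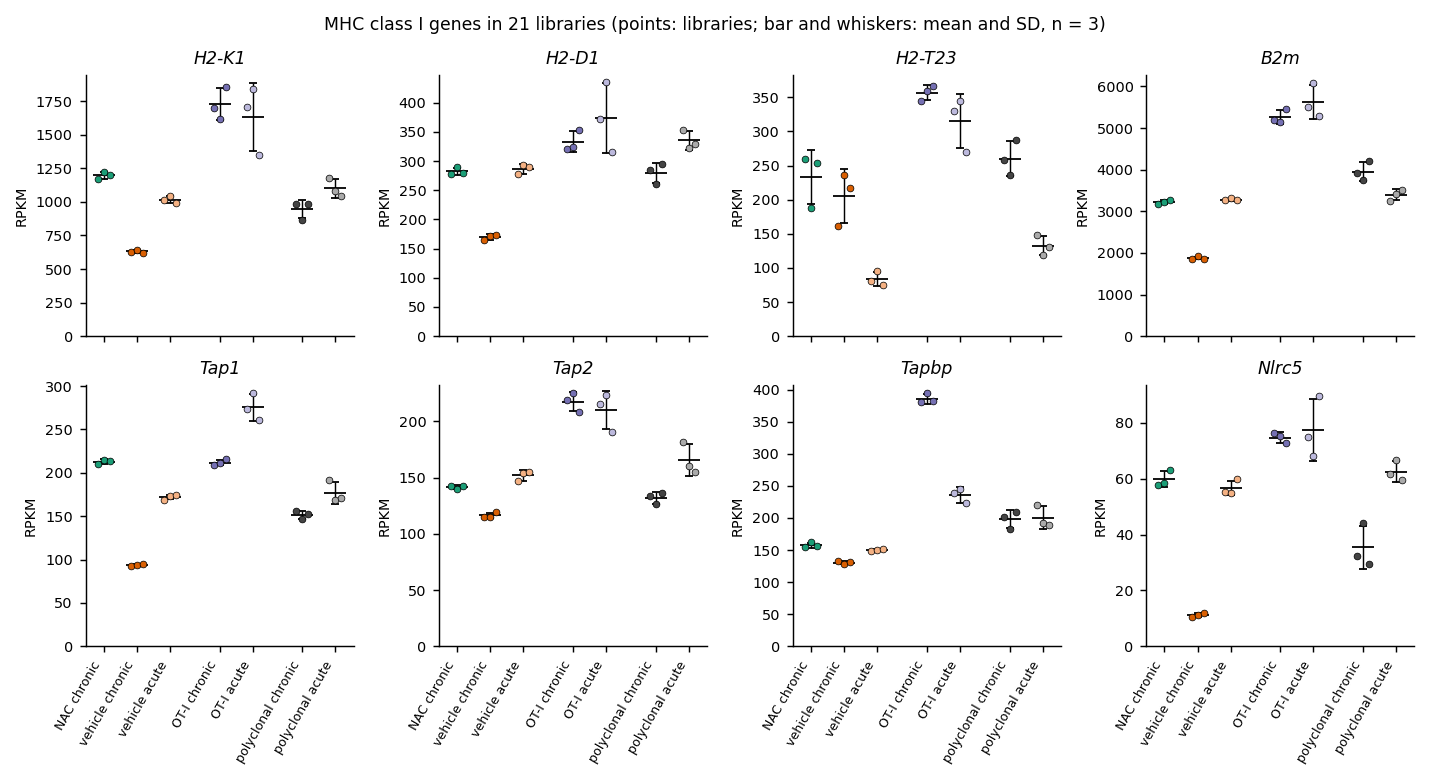
Level in RPKM (vertical axes, linear from 0) of the 8 genes in each of 21 libraries, with the 7 groups along the horizontal axis. Points are libraries, horizontal bars group means and whiskers the SD (n = 3). Vehicle chronic libraries lie lowest for every gene but H2-T23, which is lowest in vehicle acute libraries.

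The first question was what repeated stimulation did to these genes when no second cell type had been added. In vehicle chronic against vehicle acute cultures 7 of the 8 genes fell and 1, H2-T23, rose (limma on log2(RPKM + 1), Benjamini-Hochberg adjusted p under 0.05). Of all 12630 genes tested, 34.4% were called lower and 24.5% higher. The median log2 change was -0.72 over the 8 genes and -0.03 over all genes tested. The libraries of the groups did not overlap for any of the 8 genes, which was so for 73.1% of all genes. In bulk RNA, fewer cells of a type and less RNA per cell cannot be told apart.

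Nlrc5, the class I transactivator, changed the most of the 8. It had 10.6, 11.1 and 12.1 RPKM in vehicle chronic libraries, against 55.4, 55.0 and 59.8 RPKM in vehicle acute libraries. Each chronic library was thus far under each acute one, and the log2 change was -2.24 ± 0.107 (SE; adjusted p = 2.65e-13).

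The heavy and light chains of the classical class I molecules fell together but by less. H2-K1 had 628, 644 and 621 RPKM in vehicle chronic libraries, against 1014, 1044 and 990 RPKM in vehicle acute libraries, a log2 change of -0.69 ± 0.093 (adjusted p = 2.28e-06). H2-D1 had 165, 172 and 174 RPKM in vehicle chronic libraries, against 277, 293 and 289 RPKM in vehicle acute libraries, a log2 change of -0.75 ± 0.081 (adjusted p = 9.54e-08). B2m had 1864, 1919 and 1865 RPKM in vehicle chronic libraries, against 3270, 3308 and 3261 RPKM in vehicle acute libraries, a log2 change of -0.80 ± 0.091 (adjusted p = 2.11e-07). All 3 chronic libraries were low and alike for these genes, and the chronic means were 57% (B2m), 59% (H2-D1) and 62% (H2-K1) of the acute means.

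Of the loading genes, the transporter subunit Tap1 fell the most. Tap1 had 93.0, 93.4 and 95.1 RPKM in vehicle chronic libraries, against 169, 173 and 174 RPKM in vehicle acute libraries (log2 change -0.87 ± 0.049, adjusted p = 3.84e-12). Its partner Tap2 averaged 116 ± 2.50 RPKM in vehicle chronic and 152 ± 4.60 RPKM in vehicle acute cultures (SD, n = 3 each; log2 change -0.38, adjusted p = 1.38e-05). Tapbp, which bridges transporter and heavy chain, averaged 130 ± 2.47 RPKM in vehicle chronic and 150 ± 1.47 RPKM in vehicle acute cultures, a small change (log2 -0.20 ± 0.058, adjusted p = 0.00607).

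H2-T23 moved the other way. It had 162, 237 and 218 RPKM in vehicle chronic libraries, against 80.3, 95.2 and 75.4 RPKM in vehicle acute libraries. The chronic libraries were all higher but spread widely, and the log2 change was 1.27 ± 0.138 (adjusted p = 9.64e-08). H2-T23 stood at 25.7%, 36.7% and 35.0% of the H2-K1 level in the vehicle chronic libraries, against 7.92%, 9.12% and 7.62% in the vehicle acute libraries. H2-T23 shares sequence with other class I genes: in GENCODE transcripts 28.8% of its 50-base runs also occur in another gene, most often H2-T-ps, against 14.3% for H2-D1, 8.79% for H2-K1 and 0% for B2m and Nlrc5. The handling of reads that match 2 genes is unstated, so the values of these heavy chains are uncertain, by an amount that these shares do not give.

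**Figure D2:**
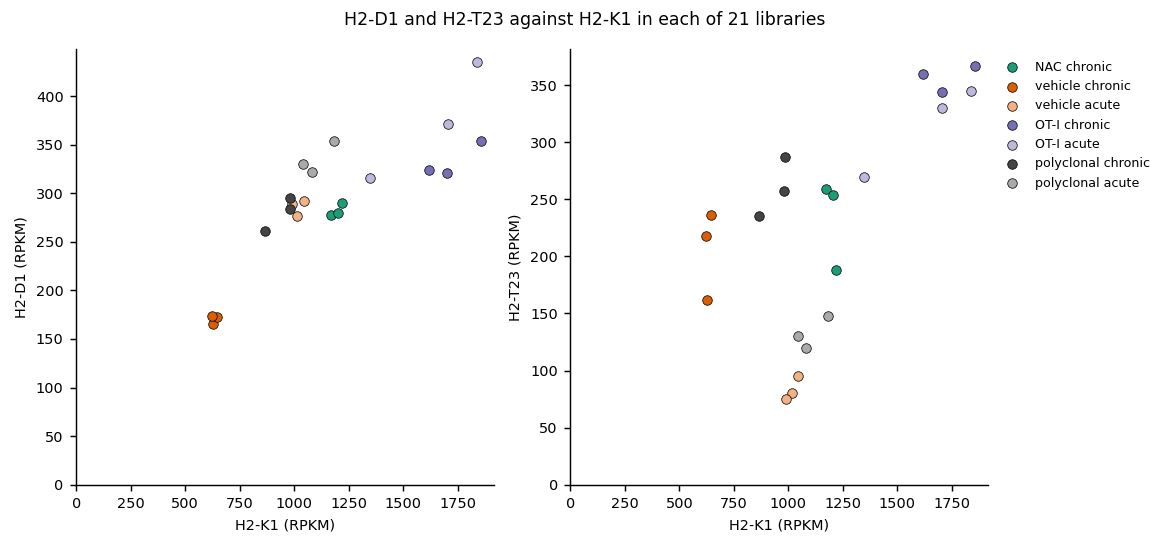
H2-D1 (left, vertical axis, RPKM) and H2-T23 (right, vertical axis, RPKM) against H2-K1 (horizontal axes, RPKM) in each of 21 libraries, coloured by group. H2-D1 is lowest where H2-K1 is lowest, in the 3 vehicle chronic libraries, whereas these libraries hold more H2-T23 than the vehicle acute libraries.

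Genes around the pathway were described from 5 lists of named genes, and bracketed pairs give the vehicle chronic mean against the vehicle acute mean. Of 12 peptide supply and loading genes, 9 fell and 1 rose in vehicle chronic against vehicle acute cultures. The immunoproteasome subunit genes fell: Psmb9 had 107, 108 and 100 RPKM in vehicle chronic libraries, against 251, 266 and 255 RPKM in vehicle acute libraries (log2 change -1.28), Psmb10 averaged 67.6 RPKM in vehicle chronic and 142 RPKM in vehicle acute cultures (-1.06), and Psmb8 averaged 292.8 RPKM in vehicle chronic and 517 RPKM in vehicle acute cultures (-0.82). Erap1, an aminopeptidase that trims peptides, fell by 0.39 on the log2 scale. The 1 gene that rose was Calr, the chaperone calreticulin (604 against 467 RPKM, log2 change 0.37), and Tapbpl, a tapasin-like peptide editor, was not called (47.7 against 48.7 RPKM, adjusted p = 0.694). Of the 9 other class I heavy chain genes tested out of 20 listed, 5 fell and 1 rose. H2-T10 (4.58 against 11.7 RPKM), H2-Q4 (83.5 against 185 RPKM) and H2-Q10 (7.18 against 13.3 RPKM) fell the most, and the gene that rose, named after its values were seen, was H2-T24 (12.6 against 8.90 RPKM).

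The interferon genes held an opposite pair. Ifng, which encodes interferon gamma, had 432, 439 and 421 RPKM in vehicle chronic libraries, against 5.20, 4.67 and 4.13 RPKM in vehicle acute libraries, a log2 change of 6.25 ± 0.079 (adjusted p = 1.62e-22). Most genes of a list of interferon-stimulated genes were lower in the same libraries. Of 32 interferon-stimulated genes tested, 26 fell and 1, Cd274 (PD-L1; 26.6 against 9.76 RPKM; named after its values were seen), rose, with a list median log2 change of -1.13. Iigp1, an interferon-inducible GTPase, had 1.02, 1.39 and 1.35 RPKM in vehicle chronic libraries, against 34.4, 28.6 and 31.9 RPKM in vehicle acute libraries (log2 change -3.86). Igtp followed, at 33.5 RPKM in vehicle chronic and 202 RPKM in vehicle acute cultures, and then Oas3, at 5.98 RPKM in vehicle chronic and 38.8 RPKM in vehicle acute cultures. The induction factor Irf1 (30.0 ± 1.49 RPKM in vehicle chronic, 61.6 ± 0.757 RPKM in vehicle acute; log2 change -1.02; SD, n = 3 each) fell too.

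Receptor and regulator genes were mixed. Of 11 interferon receptor and feedback genes 3 rose and 7 fell. That list holds Ifng itself, here among those that rose, and it is counted in the same list in each later comparison. Ifnar2, a subunit of the type I interferon receptor, averaged 8.99 RPKM in vehicle chronic and 32.9 RPKM in vehicle acute cultures. Ifngr2, the signalling subunit of the interferon gamma receptor, averaged 1.10 RPKM in vehicle chronic and 5.60 RPKM in vehicle acute cultures. Of 22 class I transcription regulators 8 rose and 8 fell. Irf8 (392 against 30.5 RPKM), Stat3 (216 against 46.0 RPKM) and the NF-kappaB gene Rel (28.8 against 6.37 RPKM) rose the most (vehicle chronic against vehicle acute means). Rfx5, the X-box binding partner of NLRC5, was not called (10.8 against 11.6 RPKM, adjusted p = 0.324). Markers of other cells differed in part. The 8 B cell markers summed to 3.54 to 4.83 RPKM in vehicle chronic and 4.90 to 6.40 RPKM in vehicle acute libraries, with Ms4a1, Pax5 and Blnk among those listed at 0 in every vehicle chronic library. The 6 myeloid markers in the table summed to 24.7 to 27.9 RPKM in vehicle chronic and 10.9 to 14.9 RPKM in vehicle acute libraries, with 4 of the 6 called higher and Adgre1 at 0 in every vehicle chronic library. The 3 NK cell markers in the table summed to 58.4 to 60.1 RPKM in vehicle chronic and 45.7 to 53.1 RPKM in vehicle acute libraries (1 called higher), and the 4 CD4 T cell markers to 19.4 to 22.3 RPKM in vehicle chronic and 33.8 to 34.7 RPKM in vehicle acute libraries (1 called higher, 2 lower). Cd8b1 was 88.8 RPKM in vehicle chronic and 179 RPKM in vehicle acute cultures, and Cd8a 145 RPKM in vehicle chronic and 87.1 RPKM in vehicle acute cultures. The part of these markers in the class I results was not tested.

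The second question was whether NAC moved these genes under the same repeated stimulation. In NAC chronic against vehicle chronic cultures 7 of the 8 genes rose and none fell, at a background of 38.5% of genes called higher and 22.6% lower. The median log2 change was 0.75 over the 8 genes and 0.08 over all genes tested. Rescaling each library to a common median moved the median of all genes by 0.0999 on the log2 scale and turned the split of calls to 3380 higher and 4114 lower, from 4862 higher and 2854 lower. Under that scaling 5 of the 8 rose, and Tap2 and Tapbp were no longer called. Of all genes, 75.8% had libraries that did not overlap, as had 7 of the 8.

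Nlrc5 had 57.9, 58.4 and 63.1 RPKM in NAC chronic libraries, against 10.6, 11.1 and 12.1 RPKM in vehicle chronic libraries, a log2 change of 2.31 ± 0.107 (adjusted p = 2.49e-13). Tap1 had 210, 215 and 214 RPKM in NAC chronic libraries, against 93.0, 93.4 and 95.1 RPKM in vehicle chronic libraries (log2 change 1.17 ± 0.049, adjusted p = 5.03e-14). H2-K1 had 1170, 1219 and 1202 RPKM in NAC chronic libraries, against 628, 644 and 621 RPKM in vehicle chronic libraries (log2 change 0.92 ± 0.093, adjusted p = 4.22e-08). The NAC chronic means were 5.31 (Nlrc5), 2.27 (Tap1) and 1.90 (H2-K1) times the vehicle chronic means, with replicates close together in both groups.

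B2m and H2-D1 rose by a little less. B2m had 3163, 3217 and 3266 RPKM in NAC chronic libraries, against 1864, 1919 and 1865 RPKM in vehicle chronic libraries (log2 change 0.77 ± 0.091, adjusted p = 3.86e-07). H2-D1 had 278, 290 and 280 RPKM in NAC chronic libraries, against 165, 172 and 174 RPKM in vehicle chronic libraries (log2 change 0.73 ± 0.081, adjusted p = 1.59e-07). Tap2 averaged 142 ± 1.71 RPKM in NAC chronic and 116 ± 2.50 RPKM in vehicle chronic cultures (log2 change 0.28, adjusted p = 0.000391), and Tapbp 158 ± 4.05 RPKM in NAC chronic and 130 ± 2.47 RPKM in vehicle chronic cultures (0.27, adjusted p = 0.000426).

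H2-T23 was the exception again. It had 259, 188 and 254 RPKM in NAC chronic libraries, against 162, 237 and 218 RPKM in vehicle chronic libraries. The groups overlapped, and the log2 change of 0.19 ± 0.138 was not called (adjusted p = 0.254). Without NAC chronic replicate 2, its lowest NAC library, it was 0.34 and called (adjusted p = 0.0450). The spread of H2-T23 between replicates was far above counting error, with a coefficient of variation of 19.0% in the vehicle chronic group.

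The surrounding genes did not all move together, as the bracketed NAC chronic against vehicle chronic means show. Of the 9 other heavy chain genes 8 rose and 1 fell: H2-Q2 (6.96 against 0.750 RPKM), H2-Q5 (84.7 against 18.9 RPKM) and H2-Q4 (278 against 83.5 RPKM) rose the most, and H2-Q10 (4.38 against 7.18 RPKM; named after its values were seen) fell. Of 12 peptide supply and loading genes 5 rose and 4 fell. Psmb9 had 289, 289 and 292 RPKM in NAC chronic libraries, against 107, 108 and 100 RPKM in vehicle chronic libraries (log2 change 1.46), and Psmb8 rose to 397 RPKM with NAC, against 293 RPKM with vehicle. The chaperone gene Calr fell to 238 RPKM in NAC chronic cultures, against 604 RPKM in vehicle chronic cultures (log2 change -1.34). Erap1 (42.6 against 41.7 RPKM) and Tapbpl (44.8 against 47.7 RPKM) were not called.

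Ifng fell with NAC while most interferon-stimulated genes rose (bracketed pairs are NAC chronic against vehicle chronic means). Ifng had 119, 113 and 120 RPKM in NAC chronic libraries, against 432, 439 and 421 RPKM in vehicle chronic libraries (log2 change -1.86 ± 0.079, adjusted p = 6.05e-14). Of 32 interferon-stimulated genes 26 rose and 3 fell, with Iigp1 (32.8 against 1.25 RPKM), Igtp (159 against 33.5 RPKM) and Gbp6 (38.4 against 8.41 RPKM) highest in log2 change. Of 22 class I transcription regulators 15 rose and 4 fell: Irf1 rose to 62.5 RPKM with NAC, against 30.0 RPKM with vehicle, and Rfx5 to 25.4 RPKM with NAC, against 10.8 RPKM with vehicle (log2 change 1.16), and Prdm1, the repressor Blimp-1, fell (5.03 against 13.9 RPKM). Of 11 receptor and feedback genes 8 rose and 3 fell, among them Ifnar2 (33.9 against 8.99 RPKM, higher) and the feedback inhibitor Socs3 (3.14 against 13.3 RPKM, lower). Cd4 was 47.9 RPKM in NAC chronic and 2.39 RPKM in vehicle chronic cultures, and 4 CD4 T cell markers summed to 74.9 to 76.8 RPKM in NAC chronic and 19.4 to 22.3 RPKM in vehicle chronic libraries, with none listed at 0 throughout either group. Myeloid markers summed to 52.3 to 55.8 RPKM in NAC chronic and 24.7 to 27.9 RPKM in vehicle chronic libraries (3 of 6 called higher, 1 lower), and NK cell markers to 29.1 to 32.1 RPKM in NAC chronic and 58.4 to 60.1 RPKM in vehicle chronic libraries (2 of 3 called lower). The CD8 T cell markers summed to 2279 to 2327 RPKM in NAC chronic and 1818 to 1831 RPKM in vehicle chronic libraries (4 of 7 called higher). For B cell markers the sums were 10.2 to 11.7 RPKM in NAC chronic and 3.54 to 4.83 RPKM in vehicle chronic libraries (2 of 8 called higher). Their part in these results was not tested.

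**Figure D3:**
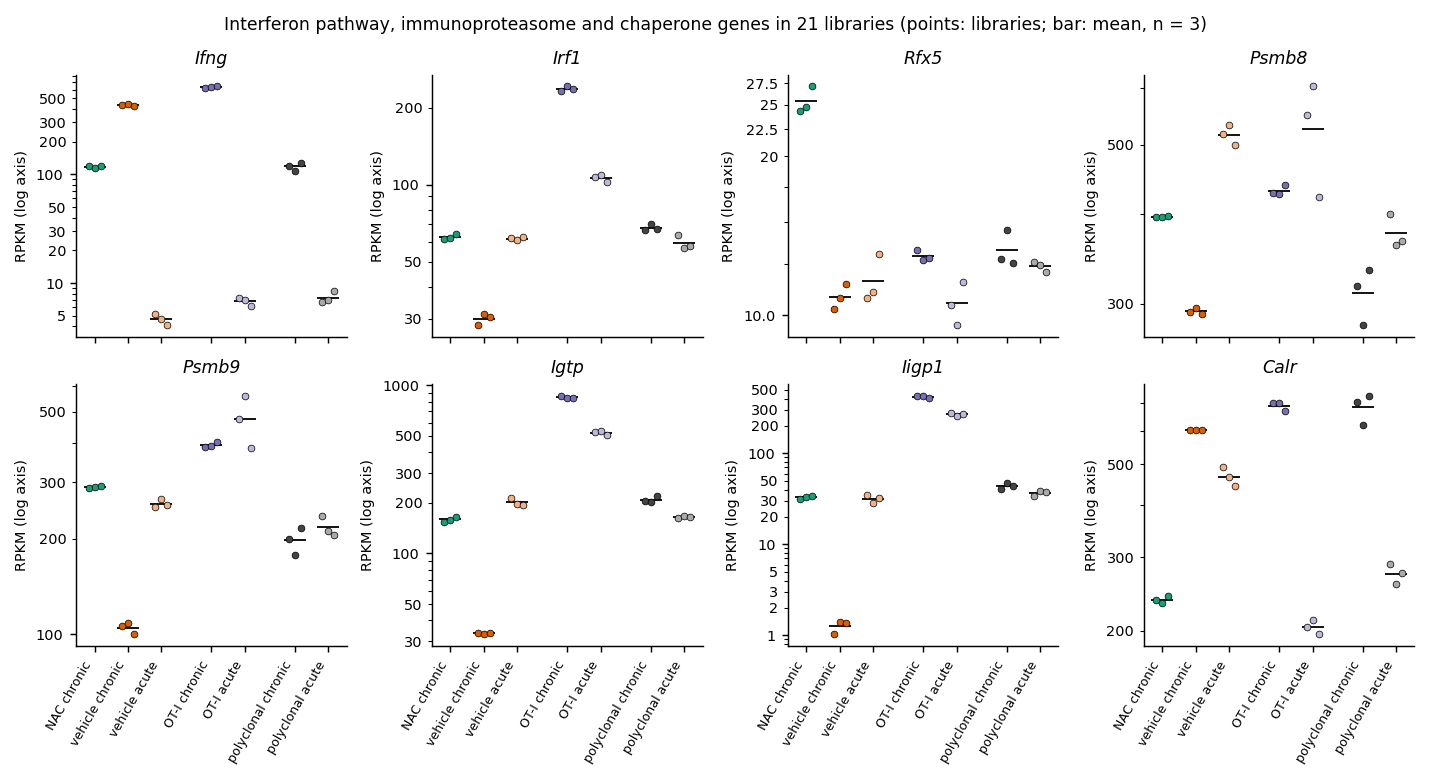
Level in RPKM (vertical axes, log scale) of interferon gamma, 2 class I regulators, 2 immunoproteasome subunits, 2 interferon-induced GTPases and calreticulin in each of 21 libraries, by group along the horizontal axis. Points are libraries and bars group means (n = 3). Vehicle chronic libraries combine high Ifng (421 to 439 RPKM) with the lowest Irf1, Psmb9, Igtp and Iigp1.

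NAC chronic cultures were also set against vehicle acute cultures of the same experiment, which had neither renewed anti-CD3 nor NAC. Of the 8 genes 3 rose and none fell, at a background of 36.3% called higher and 29.9% lower, and the median log2 change was 0.07 over the 8 genes and 0.04 over all genes. Both NAC comparisons use the same 3 NAC libraries, so they are not independent. H2-T23 had 259, 188 and 254 RPKM in NAC chronic libraries, against 80.3, 95.2 and 75.4 RPKM in vehicle acute libraries (log2 change 1.46 ± 0.138, adjusted p = 1.02e-08). Tap1 averaged 213 ± 2.67 RPKM in NAC chronic and 172 ± 2.71 RPKM in vehicle acute cultures (log2 change 0.31, adjusted p = 1.50e-05). H2-K1 averaged 1197 ± 24.9 RPKM in NAC chronic and 1016 ± 26.9 RPKM in vehicle acute cultures (log2 change 0.24, adjusted p = 0.0316).

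The other 5 genes were not called in that comparison. Nlrc5 averaged 59.8 ± 2.86 RPKM in NAC chronic and 56.7 ± 2.65 RPKM in vehicle acute cultures (log2 change 0.07 ± 0.107, adjusted p = 0.585). B2m averaged 3215 ± 51.3 RPKM in NAC chronic and 3279 ± 24.7 RPKM in vehicle acute cultures (-0.03 ± 0.091, adjusted p = 0.834), and H2-D1 282 ± 6.38 RPKM in NAC chronic and 286 ± 8.13 RPKM in vehicle acute cultures (-0.02 ± 0.081, adjusted p = 0.878). Tap2 averaged 142 RPKM in NAC chronic and 152 RPKM in vehicle acute cultures (log2 change -0.10, adjusted p = 0.155). Tapbp averaged 158 RPKM in NAC chronic and 150 RPKM in vehicle acute cultures (0.07, adjusted p = 0.282). Neither Tap2 nor Tapbp had overlapping libraries, and both were called in a limma fit of these groups alone (adjusted p = 0.0147 and 0.0308). Libraries did not overlap for 5 of the 8 genes and for 77.9% of all genes. A p that misses the threshold does not show that these levels were equal. The call on H2-K1 was lost on rescaling (adjusted p = 0.591) and without vehicle acute replicate 1 or 3 or NAC chronic replicate 2 or 3 (largest adjusted p = 0.0860). Rescaling turned the split over all genes to 3610 higher and 4802 lower, from 4587 higher and 3781 lower, and then only H2-T23 rose and Tap2 fell (log2 change -0.26).

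Around the 8 genes, the comparison of NAC chronic with vehicle acute cultures was uneven (bracketed pairs give the means in that order). Of 32 interferon-stimulated genes 7 rose and 19 fell, with Ifit3 (0.824 against 5.52 RPKM), Gbp2 (26.0 against 81.0 RPKM) and Oas3 (12.3 against 38.8 RPKM) lowest in log2 change. Irf1 (62.5 against 61.6 RPKM) and Psmb9 (290.1 against 257 RPKM) were not called. Of 12 peptide supply and loading genes 8 fell and none rose, among them Calr (238 against 467 RPKM), the disulfide isomerase gene Pdia3 (247 against 387 RPKM) and Psme3 (57.1 against 93.3 RPKM), a proteasome activator subunit. Of the 9 other heavy chain genes 7 rose and 1, H2-Q10, fell. Of 22 regulators 14 rose and 2 fell, and of 11 receptor and feedback genes 5 rose and 2 fell, with Socs1 at 36.4 RPKM in NAC chronic and 93.8 RPKM in vehicle acute cultures. CD4 T cell markers summed to 74.9 to 76.8 RPKM in NAC chronic and 33.8 to 34.7 RPKM in vehicle acute libraries (3 of 4 called higher, 1 lower). Sums of myeloid markers were 52.3 to 55.8 RPKM in NAC chronic and 10.9 to 14.9 RPKM in vehicle acute libraries (4 of 6 called higher). Those of NK cell markers were 29.1 to 32.1 RPKM in NAC chronic and 45.7 to 53.1 RPKM in vehicle acute libraries (1 of 3 called lower). The CD8 T cell markers summed to 2279 to 2327 RPKM in NAC chronic and 1475 to 1533 RPKM in vehicle acute libraries (5 of 7 called higher). For B cell markers the sums were 10.2 to 11.7 RPKM in NAC chronic and 4.90 to 6.40 RPKM in vehicle acute libraries (2 of 8 called higher).

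The polyclonal experiment asked the chronic question in a separate set of cultures. In polyclonal chronic against polyclonal acute cultures 5 of the 8 genes fell, 2 rose and 1 was not called, at a background of 35.5% called lower and 28.6% higher. The median log2 change was -0.22 over the 8 genes and -0.08 over all genes tested. A library pair overlapped for 1 of the 8 genes, Tapbp, whereas 59.6% of all genes had no overlap. Nlrc5 had 32.4, 44.3 and 29.6 RPKM in polyclonal chronic libraries, against 61.6, 66.7 and 59.4 RPKM in polyclonal acute libraries. Its chronic libraries were all lower, replicate 2 least so, with a log2 change of -0.82 ± 0.107 (adjusted p = 1.06e-06).

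Most other falls in the polyclonal experiment were small. Tap2 averaged 132 ± 5.31 RPKM in polyclonal chronic and 166 ± 13.9 RPKM in polyclonal acute cultures (log2 change -0.32, adjusted p = 9.45e-05). Tap1 averaged 151 ± 4.70 RPKM in polyclonal chronic and 177 ± 12.8 RPKM in polyclonal acute cultures (-0.22, adjusted p = 0.000472), and H2-D1 280.0 ± 17.4 RPKM in polyclonal chronic and 335 ± 16.7 RPKM in polyclonal acute cultures (-0.26, adjusted p = 0.00799). H2-K1 averaged 943 ± 67.0 RPKM in polyclonal chronic and 1101 ± 71.4 RPKM in polyclonal acute cultures (-0.22, adjusted p = 0.0421). Tapbp averaged 198 ± 13.8 RPKM in polyclonal chronic and 201 ± 17.3 RPKM in polyclonal acute cultures and was not called (adjusted p = 0.803).

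H2-T23 and B2m rose. H2-T23 had 258, 236 and 287 RPKM in polyclonal chronic libraries, against 148, 120 and 130 RPKM in polyclonal acute libraries (log2 change 0.97 ± 0.138, adjusted p = 3.45e-06). B2m had 3912, 3744 and 4211 RPKM in polyclonal chronic libraries, against 3250, 3417 and 3512 RPKM in polyclonal acute libraries (log2 change 0.22 ± 0.091, adjusted p = 0.0414). The calls on B2m and H2-K1 were near the threshold, and both were also lost with a pseudocount of 0.1 and in a fit of these groups alone (adjusted p of 0.0508 to 0.299). That on B2m was lost on rescaling and without any of 5 of the 6 libraries (adjusted p of 0.0584 to 0.139, kept without polyclonal chronic replicate 2). That on H2-K1 was lost on rescaling (adjusted p = 0.175) and without polyclonal acute replicate 1 or 2 or polyclonal chronic replicate 2 (0.0601 to 0.151). That on H2-D1 was lost on rescaling too (log2 change -0.22, adjusted p = 0.0578). Without polyclonal acute replicate 2 and polyclonal chronic replicate 2 together, and OT-I acute replicate 3, the count was again 2 higher and 5 lower.

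Other cell markers moved with the polyclonal groups. Cd79b, a B cell receptor subunit, was 114 RPKM in polyclonal chronic and 3.52 RPKM in polyclonal acute cultures, and the 8 B cell markers summed to 218 to 239 RPKM in polyclonal chronic and 3.52 to 17.8 RPKM in polyclonal acute libraries, with none of the 8 listed at 0 throughout either group. The 4 CD4 T cell markers summed to 378 to 403 RPKM in polyclonal chronic and 99.5 to 108 RPKM in polyclonal acute libraries. NK cell markers summed to 6.68 to 8.11 RPKM in polyclonal chronic and 42.5 to 49.7 RPKM in polyclonal acute libraries (2 of 3 called lower), and myeloid markers to 23.1 to 26.5 RPKM in polyclonal chronic and 40.4 to 50.3 RPKM in polyclonal acute libraries (1 of 6 called higher, 3 lower). All these cells carry class I molecules as well, and the part of these markers' cells in the class I levels was not tested.

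In the polyclonal experiment Ifng had 119, 108 and 128 RPKM in chronic libraries, against 6.71, 6.95 and 8.48 RPKM in acute libraries (log2 change 3.83; bracketed pairs are polyclonal chronic against polyclonal acute means). Ifngr1, the ligand-binding subunit of the interferon gamma receptor, fell (51.6 against 389 RPKM). Of 32 interferon-stimulated genes 12 rose and 17 fell, and Irf1 rose by 0.19 on the log2 scale (68.0 against 59.3 RPKM). Of 12 peptide supply and loading genes 5 rose and 5 fell, with Calr at 686 RPKM in chronic and 274 RPKM in acute cultures. Of the 9 other heavy chain genes 5 fell and none rose, led by H2-Q10 (7.77 against 27.9 RPKM), H2-Q5 (26.8 against 54.5 RPKM) and H2-Q4 (109 against 207 RPKM). Ciita, the class II transactivator of the same protein family as Nlrc5, was 4.54 RPKM in polyclonal chronic and 0.621 RPKM in polyclonal acute cultures and led the 22 regulators, of which 8 rose and 7 fell. Of 11 receptor and feedback genes 5 rose and 5 fell.

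In the OT-I experiment the stimulus was peptide on melanoma cells, and H2-K1 is the gene whose product presents it. Of the 8 genes 1 rose, 1 fell and 6 were not called in OT-I chronic against OT-I acute cultures, at a background of 22.4% called higher and 36.2% lower. The median log2 change was 0.00 over the 8 genes and -0.12 over all genes, 65.1% of all genes had libraries without overlap, as had 2 of the 8, and rescaling turned the split over all genes to 3460 higher and 3518 lower, from 2827 higher and 4568 lower. Tapbp had 381, 394 and 381 RPKM in OT-I chronic libraries, against 239, 245 and 223 RPKM in OT-I acute libraries, the largest rise of this gene in any of the 5 comparisons (log2 change 0.71 ± 0.058, adjusted p = 2.57e-09). Tap1 had 209, 211 and 215 RPKM in OT-I chronic libraries, against 274, 292 and 261 RPKM in OT-I acute libraries (log2 change -0.38 ± 0.049, adjusted p = 1.73e-06).

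Nlrc5 had 76.3, 75.4 and 72.7 RPKM in OT-I chronic libraries, against 74.9, 68.0 and 89.7 RPKM in OT-I acute libraries. The groups overlapped, and the log2 change was -0.04 ± 0.107 (adjusted p = 0.750). H2-K1 had 1702, 1619 and 1855 RPKM in OT-I chronic libraries, against 1704, 1840 and 1348 RPKM in OT-I acute libraries (log2 change 0.09 ± 0.093, adjusted p = 0.411). OT-I acute replicate 3 was the low one, as it also was for H2-D1, H2-T23, B2m, Tap1, Tap2 and Tapbp, and it was the highest for Nlrc5.

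The calls of the OT-I experiment changed without that library. With it, H2-D1 averaged 333 ± 18.2 RPKM in OT-I chronic and 374 ± 59.7 RPKM in OT-I acute cultures (log2 change -0.16, adjusted p = 0.104). Without it the log2 change of H2-D1 was -0.27 and called (adjusted p = 0.00145). With all 3 libraries of raised weak genes left out, 3 of the 8 fell (Tap1, H2-D1 and B2m) and 1 rose (Tapbp). The libraries left out include polyclonal acute replicate 2 and polyclonal chronic replicate 2, which are outside this comparison. B2m (log2 change -0.13, adjusted p = 0.0398) was not called with any single OT-I library left out (lowest adjusted p = 0.125). B2m averaged 5270 ± 175 RPKM in OT-I chronic and 5625 ± 404 RPKM in OT-I acute cultures, H2-T23 357 ± 11.6 RPKM in OT-I chronic and 315 ± 39.7 RPKM in OT-I acute cultures, and Tap2 217 ± 8.48 RPKM in OT-I chronic and 210.0 ± 17.0 RPKM in OT-I acute cultures, none of them called with all libraries in.

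Melanoma RNA differed between the OT-I groups by the same markers as given above, with Tyrp1 at 1244 RPKM in OT-I chronic and 2281 RPKM in OT-I acute cultures and none of 12 melanocyte markers listed at 0 throughout either group. The melanoma cells had been pretreated with interferon gamma, which raises class I genes, and how much of each class I level they gave was not tested. B cell markers summed to 46.1 to 49.9 RPKM in OT-I chronic and 5.36 to 13.1 RPKM in OT-I acute libraries, with none of the 8 listed at 0 throughout either group. Myeloid markers summed to 24.4 to 26.7 RPKM in OT-I chronic and 7.47 to 12.7 RPKM in OT-I acute libraries, and NK cell markers to 22.1 to 24.4 RPKM in OT-I chronic and 5.04 to 7.25 RPKM in OT-I acute libraries (3 of 6 and 3 of 3 called higher). CD4 T cell markers summed to 23.4 to 24.6 RPKM in OT-I chronic and 36.7 to 41.5 RPKM in OT-I acute libraries (1 of 4 called higher, 2 lower). In the bracketed pairs that follow, the OT-I chronic mean stands against the OT-I acute mean. Of 12 peptide supply and loading genes 9 rose and 2 fell: Calr (691 against 204 RPKM), Erap1 (61.8 against 37.2 RPKM), Pdia3 (395 against 252 RPKM) and Tapbpl (83.2 against 57.3 RPKM) rose, and Psmb8 (431 against 526 RPKM) and Psmb9 (393 against 474 RPKM) fell with overlapping libraries. Of 32 interferon-stimulated genes 14 rose and 6 fell, with the chemokine genes Cxcl9 (448 against 3.73 RPKM) and Cxcl10 (1777 against 333 RPKM) and the GTPase gene Gbp2 (1081 against 316 RPKM) in front. Ifng had 619, 637 and 641 RPKM in OT-I chronic libraries, against 7.33, 7.04 and 6.11 RPKM in OT-I acute libraries, and Irf1 rose (237 against 106 RPKM). Of the 9 other heavy chain genes 1, H2-Q10, rose and 7 fell, of 22 regulators 9 rose and 9 fell, and of 11 receptor and feedback genes 3 rose and 6 fell.

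**Figure D4:**
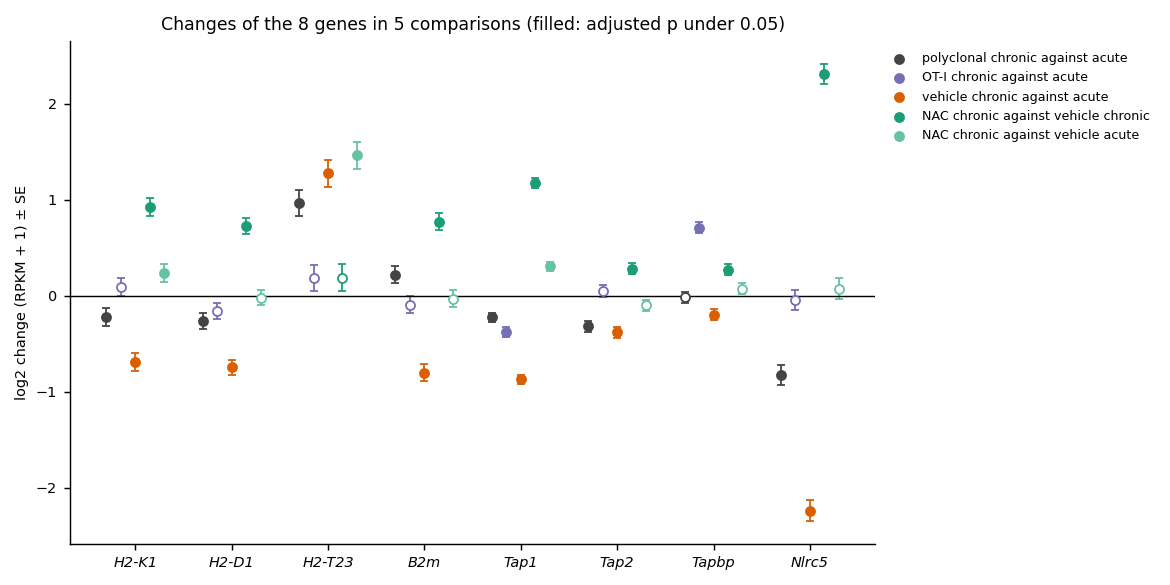
Log2 change of RPKM + 1 (vertical axis) of the 8 genes (horizontal axis) in 5 comparisons, coloured by comparison. Points are fitted changes and bars their SE, and filled points have an adjusted p under 0.05. Nlrc5 lies at -2.24 in vehicle chronic against acute and at 2.31 in NAC chronic against vehicle chronic, and H2-T23 is above 0 in all 5.

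Whether the chronic change itself differed between experiments was tested as a difference of log2 changes in the same fit. These differences compare whole experiments, which differ in culture and cell makeup, and any 2 of them share 1 experiment. For the OT-I change minus the vehicle change all 8 genes were called, 7 higher and 1, H2-T23, lower (background 27.4% higher and 31.1% lower). Nlrc5 differed the most, by 2.19 ± 0.151 (adjusted p = 1.68e-10), then Tapbp by 0.91 and H2-K1 by 0.78. For the vehicle change minus the polyclonal change 5 of the 8 were called, all lower (background 25.1% higher and 27.3% lower). Nlrc5 differed by -1.41 ± 0.151 (adjusted p = 1.30e-07), B2m by -1.02 and Tap1 by -0.64, while H2-T23 (0.30, adjusted p = 0.205), Tap2 (-0.06, adjusted p = 0.567) and Tapbp (-0.18, adjusted p = 0.0740) were not called. Without vehicle chronic replicate 1 the difference of H2-T23 was 0.47 and called (adjusted p = 0.0383). That of Tapbp was called without polyclonal acute replicate 1 (-0.25, adjusted p = 0.00791) or polyclonal chronic replicate 2 (-0.24, adjusted p = 0.0149), and with all 3 libraries of raised weak genes left out (-0.20, adjusted p = 0.0139). For the OT-I change minus the polyclonal change 4 were called higher and 2 lower (background 26.6% higher and 29.2% lower), led by Nlrc5 (0.78, adjusted p = 0.000194), H2-T23 (-0.78, adjusted p = 0.00198) and Tapbp (0.73, adjusted p = 2.36e-07). With the replicate number as a block, H2-K1 was no longer called for the OT-I change minus the polyclonal change (adjusted p = 0.0565) and Tap1 was (0.0469), and Tapbp was called for the vehicle change minus the polyclonal change (0.0495). For the OT-I change minus the polyclonal change, Tap1 was also called with the 3 libraries of raised weak genes left out (-0.18, adjusted p = 0.0176) and without polyclonal acute replicate 1, polyclonal chronic replicate 2 or OT-I acute replicate 3 (adjusted p of 0.00777 to 0.0421).

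Genes with a pattern like that of the class I genes were sought among 4297 genes of sufficient level and range, by Pearson's r over the 7 group means of log2(RPKM + 1), as a description with no test. The means share their libraries and the 3 experiments, and each r rests on 7 points. For H2-K1 the nearest were Gbp10 (r = 0.991), Lgals9 (0.985) and Foxo3 (0.979). Gbp10, an interferon-inducible GTPase gene, averaged 11.6 RPKM in NAC chronic, 0.937 in vehicle chronic and 5.63 RPKM in vehicle acute cultures. Its highest means were those of the OT-I groups, 55.7 RPKM in OT-I chronic and 40.9 RPKM in OT-I acute cultures. It averaged 4.34 RPKM in polyclonal chronic and 9.08 RPKM in polyclonal acute cultures. For B2m, Iigp1 (r = 0.984) and Sirt5 (0.977) were among the nearest, and for Nlrc5 the nearest were Gbp6 (0.962), Mccc2 (0.950) and Serpina3g (0.949). Gbp6, also an interferon-inducible GTPase gene, averaged 38.4 RPKM in NAC chronic, 8.41 in vehicle chronic and 38.3 RPKM in vehicle acute cultures. In the OT-I groups its means were 48.8 RPKM (chronic) and 87.1 RPKM (acute), and in the polyclonal groups 26.7 RPKM (chronic) and 47.4 RPKM (acute).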

How the data were processed

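RNA of 21 libraries was measured by poly(A) RNA sequencing, per the labels' protocols. The authors deposited 1 table of RPKM, in which reads are scaled to gene length and library size, and all 21 columns were matched to samples by title. Tools listed in the submitters' processing notes are HTSeq, edgeR and bcl2fastq 2.17, and the build is mm9; their roles and order are not stated. Aligner, annotation, strand and the treatment of reads that match 2 genes are unstated in the labels, so overlapping and near-identical genes can share reads. No mm9 genome was used, and promoter coordinates are those of RefSeq on GRCm38.p6.

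Genes with 1 RPKM or more in at least 3 libraries were tested (12630 of 13202). Log2(RPKM + 1) values were fitted with limma 3.58.1 in R 4.3.3, with 1 mean per group over 7 groups (14 residual degrees of freedom), empirical Bayes with trend and no block. P-values are two-sided and Benjamini-Hochberg adjusted over all genes tested, and an adjusted p under 0.05 is a call. Fold changes are on the log2(RPKM + 1) scale, which understates those of low genes. Tables were prepared with Python 3.11.15, numpy 2.4.6 and pandas 2.3.3, and the fit was tested on simulated data. Whole reads were recovered from the RPKM steps for 100% of genes within 0.001 reads, and limma's voom fit of those reads was an alternative, beside another pseudocount, other filters, rescaling to a common median, a fit of the compared groups alone, the replicate block and leaving out libraries. On the recovered reads voom called 7 (polyclonal), 2 (OT-I), 8 (vehicle), 7 (NAC against vehicle chronic) and 3 (NAC against vehicle acute) of the 8 genes. Of all 12630 genes it called 3492 higher and 4154 lower (polyclonal), 3244 and 5224 (OT-I) and 3299 and 4535 (vehicle). It called 5017 higher and 2936 lower for NAC against vehicle chronic, and 4786 and 3877 for NAC against vehicle acute.

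Replicates of no group agreed within counting noise, so each library counts once. Same-numbered polyclonal libraries deviated together from their group means (r = 0.446, 0.629 and 0.168 over genes). They thus met the rule used here for pairing by number, every same-numbered pair over 0.1. Of the differently numbered pairs, acute 1 with chronic 3 also correlated (r = 0.569), above 2 of these 3. The libraries of the pair at 0.629, acute 2 and chronic 2, are both among those with raised weak genes. Pairing by number is therefore not settled by these values. In the other experiments same numbers did not correlate in every pair.

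Beside the 8 genes the text names, per list and comparison, up to 3 called genes with the largest change, at least 1 RPKM in the higher group and no overlap, and Ifng, Irf1, Rfx5, Psmb8, Psmb9, Erap1, Calr and Tapbpl. Some genes that this rule names are not reported here. The genes, lists and tests were chosen with earlier results of these data known.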

Additional observations from a re-analysis of the deposited data

Results flagged for a closer look

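Results stand here where the change between chronic and acute cultures differed between experiments by a test of the difference itself (limma, adjusted p under 0.05). Values are differences of log2 changes. The experiments differ in culture and in markers of other cells, whose part was not tested.

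The OT-I change minus the vehicle change was 2.19 for Nlrc5 (adjusted p = 1.68e-10), 0.91 for Tapbp, 0.78 for H2-K1, 0.71 for B2m, 0.59 for H2-D1, 0.49 for Tap1, 0.43 for Tap2 and -1.09 for H2-T23 (largest adjusted p of the 8 = 0.000184). The vehicle change minus the polyclonal change was -1.41 for Nlrc5, -1.02 for B2m, -0.64 for Tap1, -0.49 for H2-D1 and -0.46 for H2-K1 (largest adjusted p of the 5 = 0.00600).

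The OT-I change minus the polyclonal change was 0.78 for Nlrc5, 0.73 for Tapbp, 0.37 for Tap2, 0.32 for H2-K1, -0.31 for B2m and -0.78 for H2-T23. Those of H2-K1 (adjusted p = 0.0487) and B2m (adjusted p = 0.0467) were near the threshold. Both calls were lost with a pseudocount of 0.1 (H2-K1 0.0607, B2m 0.104), without the filter on low values (0.0521 and 0.0559), on rescaling to a common median (0.0644 and 0.210) and in a fit of the compared groups alone (0.183 and 0.316; all adjusted p). Leaving out single libraries lost the call on H2-K1 in 7 of 12 cases and that on B2m in 10 of 12. With polyclonal acute replicate 2, polyclonal chronic replicate 2 and OT-I acute replicate 3 left out, the difference of H2-K1 was 0.14 and not called (adjusted p = 0.177). Without OT-I acute replicate 3 alone it was 0.18 (adjusted p = 0.105).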

How the results depend on the processing

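Of 1016 values of single genes under alternatives, 934 kept direction and side of the threshold, 50 lost a call, 17 gained one and 15 changed sign, none of these 15 a call with all libraries in. In vehicle chronic against vehicle acute cultures all 8 genes were called under every alternative run, and in NAC chronic against vehicle chronic cultures 5 to 8 were. Rescaling to a common median left 4 of the 8 called in the polyclonal experiment (1 higher, 3 lower). Under that scaling 3861 of the 12630 genes were called higher there and 4203 lower. Fitting only the compared groups called 5 for NAC chronic against vehicle acute (4 higher, 1 lower). Leaving out the 3 libraries with raised weak genes, chosen after seeing the data, called 4 in the OT-I experiment (1 higher, 3 lower). No share of all genes is given beside the counts without the 3 libraries, of the compared groups alone or with the replicate block. Uncalled log2 changes that changed sign on rescaling were those of Tapbp (0.0229, polyclonal), Nlrc5 (0.0467, OT-I), and Tapbp (-0.0837) and Nlrc5 (-0.0815) for NAC chronic against vehicle acute. Without the 3 libraries Tapbp was 0.00782 (polyclonal), H2-K1 -0.0394, Tap2 -0.0143 and Nlrc5 0.0661 (OT-I), and the OT-I minus polyclonal difference of H2-D1 -0.0341. Leaving out single libraries gave -0.0591 to 0.0521 for Tapbp (polyclonal), -0.0394 to 0.185 for H2-K1, -0.0143 to 0.0985 for Tap2 and -0.131 to 0.0661 for Nlrc5 (OT-I), and -0.0123 to 0.218 for H2-D1 (OT-I minus polyclonal). The causes were not tested. With the replicate block the counts were 7 (polyclonal), 2 (OT-I), 8 (vehicle), 7 and 3 (NAC against vehicle chronic and acute) as without it, and it changed no call but the 3 given with the differences (adjusted p = 0.0565, 0.0469 and 0.0495). Depth limited none of the 8 genes, since the lowest count, 842 reads of H2-T23, carries a counting error of 3.45%.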
